A study of Rattus norvegicus with 12 samples.

Results

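The genes described here carry fatty acids into the heart muscle cell and break them down for energy. They are 42 genes of uptake, lipolysis, activation, the carnitine shuttle, mitochondrial and peroxisomal beta-oxidation, electron transfer, branched-chain acyl-CoA dehydrogenation and ketone use. Members were taken by name: a probe set belonged to a member if the platform annotation gave it that gene's symbol, or an older synonym, and no other. All 42 were on the array, with 60 probe sets, of 14217 genes named by 31042 probe sets. Of these, 55 member probe sets passed a filter on dim signals and each of the 42 genes kept at least 1 of them, in a test of 10606 genes. Where several passed, the one with the highest mean stands for the gene, in the counts and rankings of genes below unless stated.

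The tissue was left atrial appendage or left ventricular free wall of male Sprague Dawley rats weighing 225 to 275 g. The animals were sham operated or given an aorto-caval shunt, an opening between the aorta and the vena cava that returns arterial blood to the heart and so loads it with volume, and the tissue was taken at 28 days. Each of the 12 arrays held RNA of 1 pool of 2 tissues, with 3 pools in each of the groups atrial sham, atrial shunt, ventricular sham and ventricular shunt. The labels used here give no age for the rats, and pooling hides the spread between single animals. The comparisons ask how the chambers differ in these genes, with and without the load, and how the load changes them in each chamber.

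The working heart draws most of its energy from fatty acids. Lipoprotein lipase frees them from circulating triglyceride, CD36 and transport proteins bring them across the membrane, and acyl-CoA synthetases tie them to coenzyme A. Carnitine palmitoyltransferases and a carrier take the acyl group into the mitochondrion, where repeated rounds of dehydrogenation, hydration, a second dehydrogenation and thiolysis release acetyl-CoA. Malonyl-CoA, made by acetyl-CoA carboxylase and removed by malonyl-CoA decarboxylase, restrains the entry step. Many of these genes are known targets of the nuclear receptors PPARα and ERRα, which bind variants of the hexamer AGGTCA.

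The promoters of the members on which the results turn are shown for their sequence. Those of Acsl6, Bdh1 and Acadm belong to the 3 largest chamber differences with an entry in the promoter table. Those of Crat and Slc27a1 belong to the 2 smallest p-values for the shunt averaged over the chambers, by the probe sets that stand for genes. Each line holds the 250 bases before the start of the gene in RefSeq, assembly GRCr8, read 5′ to 3′ on the gene's strand. Capitals mark 2 strings of letters searched on both strands, which share no letters where they match: the hexamer AGGTCA and the GC box GGGCGG, bound by Sp1.
Acsl6, chr10:38951911-38952160, plus strand: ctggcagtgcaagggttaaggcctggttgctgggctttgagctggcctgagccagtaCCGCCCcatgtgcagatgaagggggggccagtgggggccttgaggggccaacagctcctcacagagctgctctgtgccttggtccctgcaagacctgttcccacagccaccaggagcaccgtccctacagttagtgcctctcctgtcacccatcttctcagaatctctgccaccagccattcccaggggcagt
Bdh1, chr11:82842637-82842886, minus strand: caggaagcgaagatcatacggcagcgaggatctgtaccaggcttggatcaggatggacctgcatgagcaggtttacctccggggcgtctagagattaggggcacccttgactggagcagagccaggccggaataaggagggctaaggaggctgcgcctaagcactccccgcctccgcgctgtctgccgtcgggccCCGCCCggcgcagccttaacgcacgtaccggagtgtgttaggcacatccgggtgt
Acadm, chr2:245542865-245543114, minus strand: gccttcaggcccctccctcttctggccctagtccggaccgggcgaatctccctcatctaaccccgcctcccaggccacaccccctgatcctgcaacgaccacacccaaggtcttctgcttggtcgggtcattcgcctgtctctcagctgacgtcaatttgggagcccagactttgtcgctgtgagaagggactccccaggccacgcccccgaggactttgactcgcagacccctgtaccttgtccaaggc
Crat, chr3:34087100-34087349, minus strand: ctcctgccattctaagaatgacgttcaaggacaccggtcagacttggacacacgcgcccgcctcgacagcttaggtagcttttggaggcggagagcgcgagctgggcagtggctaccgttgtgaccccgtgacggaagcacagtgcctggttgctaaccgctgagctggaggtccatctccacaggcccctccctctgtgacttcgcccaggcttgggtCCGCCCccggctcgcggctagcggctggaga
Slc27a1, chr16:18312717-18312966, plus strand: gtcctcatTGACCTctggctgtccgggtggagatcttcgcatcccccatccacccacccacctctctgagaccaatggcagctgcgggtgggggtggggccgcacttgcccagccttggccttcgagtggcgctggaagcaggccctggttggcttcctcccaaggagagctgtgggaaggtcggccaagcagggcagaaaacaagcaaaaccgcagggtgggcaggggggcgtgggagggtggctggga
The windows of Acsl6, Bdh1 and Crat held 1 GC box each, read on the opposite strand as CCGCCC, that of Slc27a1 held 1 AGGTCA, here read on the opposite strand as TGACCT, and that of Acadm held neither string. Of the members, 35 had an entry in the promoter table. Among these the GC box stood in 23 (65.7%), against 30.5% of all 33469 promoters of the same length. AGGTCA stood in 6 (17.1%: Acacb, Acadvl, Echs1, Eci1, Hsd17b4 and Slc27a1), against 14.1%. The 33469 promoters were not limited to genes on the array or tested here, so the sets compared were not matched. A match describes letters and not a bound site.

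Arrays of 1 group correlated at 0.983 to 0.996 over probe sets and arrays of different chambers at 0.935 to 0.950. The chamber labels fitted their markers: 6 of 7 tested atrial markers were higher in the atrium of sham rats, Gja5 being lower, and 7 of 7 ventricular markers were lower. Atrial shunt 3 and ventricular shunt 2 stood farthest from their group means, at root mean square deviations of 0.200 and 0.163 on the log2 scale against 0.0913 to 0.148 on the other 10 arrays. Results that rest on them are given with and without them. In whole tissue, fewer cells of a type and less RNA per cell cannot be told apart.

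In sham rats, most of the pathway was lower in the left atrium than in the left ventricle. Of the 42 genes, 32 were lower and 3 higher at an adjusted p under 0.05 (limma, Benjamini-Hochberg over 18625 probe sets), where 50.2% of all genes tested were called in either direction and 22.6% were called lower. The median difference was -0.57 on the log2 scale over the 42 genes and 0.02 over all genes. The atrium was lower by 1 or more on this scale in 14 genes (33.3%), against 2.08% of all genes. In 34 of the 42 every atrial sham array lay below every ventricular one, which held for 29.1% of all genes.

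The same order stood after the shunt. Then 33 genes were lower in the atrium and 1 was higher, where 45.6% of all genes were called in either direction and 20.9% lower, with a median of -0.67 over the 42 genes and 0.01 over all genes. The 32 genes called lower in sham were called lower after the shunt as well, which 17.2% of all genes were. The count called was 34 to 36 in sham and 33 to 35 after the shunt in fits that left out 1 array.

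**Figure D1:**
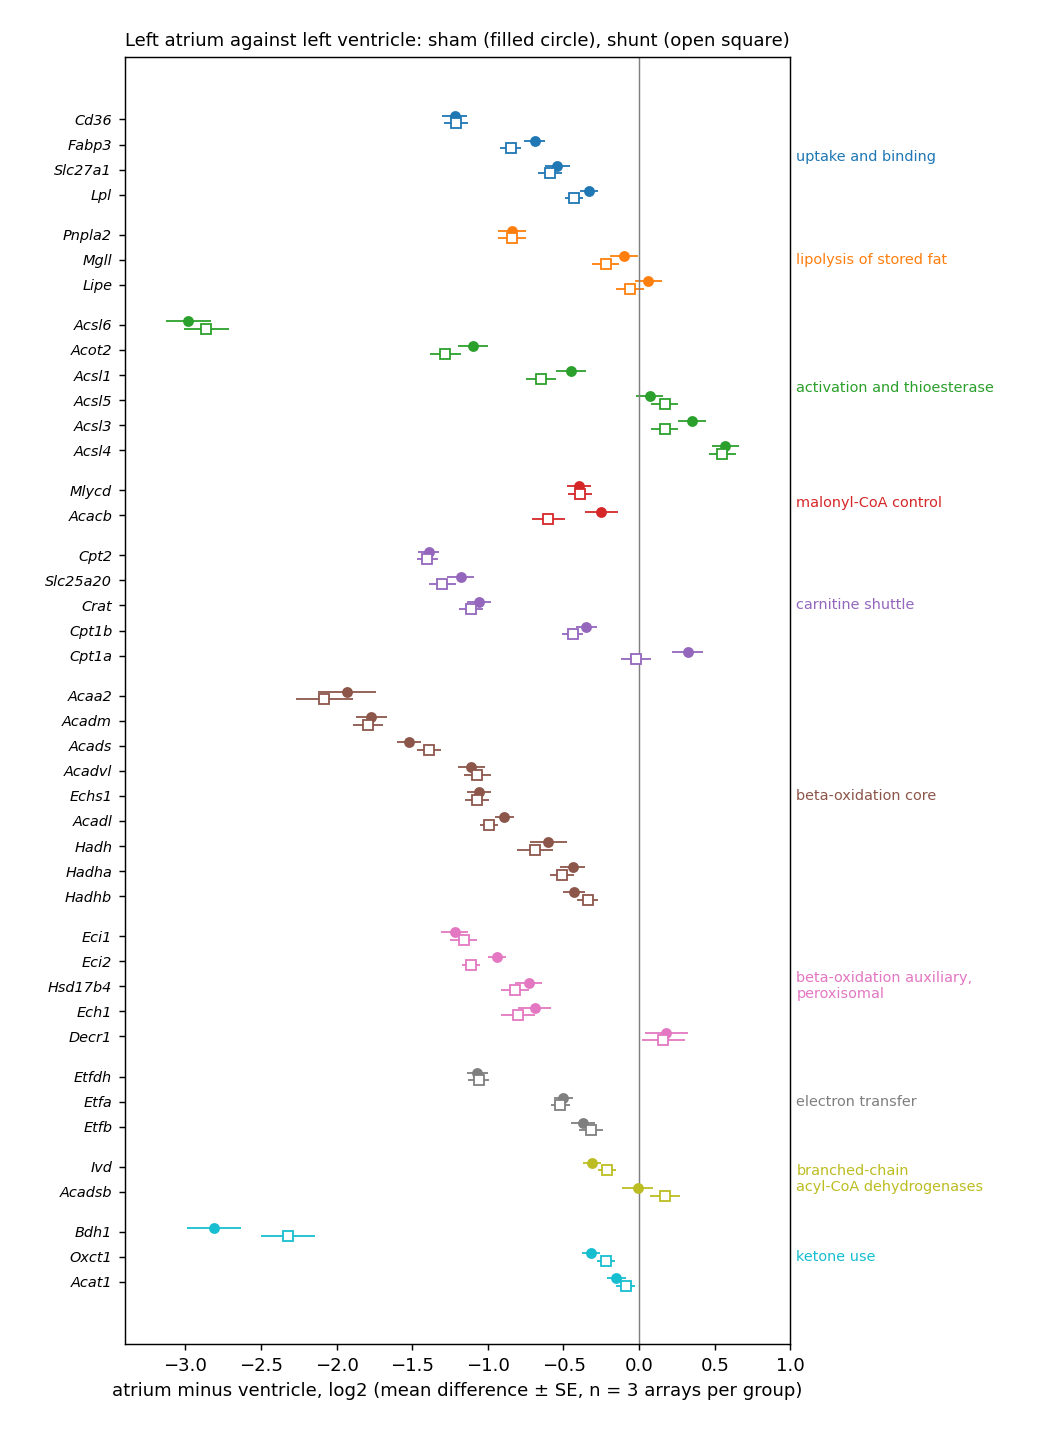
Difference between left atrium and left ventricle in log2 units (horizontal axis) for each of the 42 genes, grouped and coloured by step, in sham rats (filled circles) and after the shunt (open squares); bars are standard errors of the fit with 3 arrays per group. Most points lie left of 0, from -2.98 for Acsl6, whose atrial sham mean was under the filter value, to 0.57 for Acsl4 in sham rats, and the values of a gene in sham and after the shunt lie close together for most genes.

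Within a chamber the shunt effect was small. In the atrium 0 of the 42 genes passed and 18 had an unadjusted p under 0.05, where 1.40% of all genes passed and 15.9% had such a p. Probe sets of Acot2, Cpt1a and Acsl1 other than those that stand for the genes were called lower there. Of all probe sets, 1.30% passed. In the ventricle 0 passed and 10 had an unadjusted p under 0.05, where 0.113% of all genes passed and 14.6% had such a p. The signs ran mostly one way: 34 of 42 differences were below 0 in the atrium, against 52.9% of all genes, and 35 of 42 in the ventricle, against 50.0%. In the atrium 21 genes had every shunt array below every sham array (12.5% of all genes), and in the ventricle 17 (10.5%). The median was -0.14 in the atrium and -0.09 in the ventricle, against -0.01 and 0.00 over all genes. Below 0 in both chambers were 30 genes (71.4%), against 33.7% of all genes, and above 0 in both were Pnpla2, Acsl4 and Etfa.

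The atrial count rested on the arrays, the fit and the probe set taken for a gene. It was 3 without atrial shunt 3 (Acsl1 and Hadha lower, Bdh1 higher), where 2.83% of all genes passed, and 0 in each of the other 11 fits without 1 array. It was 11 of 42 when arrays were weighted by their spread, where 5.54% of all genes passed. With a gene's probe sets averaged it was 4 (2.35% of all genes), and with its probe set of largest variance 3 (1.40%).

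Averaged over the chambers, 5 genes fell: Crat, Slc27a1, Hadha, Cpt2 and Mlycd, by 0.20 to 0.30 on the log2 scale, and none rose. Among all genes 5.06% passed and 2.69% fell. Other probe sets of Acot2, Acsl1, Cpt1a and Mgll fell as well, where 4.80% of all probe sets passed. An unadjusted p under 0.05 was found for 22 of the 42 (22.3% of all genes), and 35 of the 42 averages were below 0 (51.6% of all genes), with a median of -0.11 against 0.00. The count was 11 without atrial shunt 3 (6.97% of all genes), 1 without ventricular sham 2 (2.16%), and 2 or 3 without any of the other 10 arrays. Crat kept its call in 12 of the 12 fits without 1 array and Slc27a1 in 11, Hadha in 5, and Cpt2 and Mlycd in 1. The fit takes the 12 arrays as independent. With same-numbered arrays of an operation as a block, 2 genes kept their calls, Crat and Slc27a1 (3.02% of all genes passed).

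The shunt effects of the chambers were compared with each other. None of the 42 differed by limma (0% of all genes passed), and 2 had an unadjusted p under 0.05, Cpt1a and Acacb (6.79% of all genes had one). A difference that misses the threshold does not show that the chambers responded alike. The effect on the atrium minus that on the ventricle had a median of -0.02 over the 42 genes and -0.01 over all genes. Over the 42 it ran from -0.08 to 0.00 without 1 array and was 0.01 with arrays centred on their median.

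**Figure D2:**
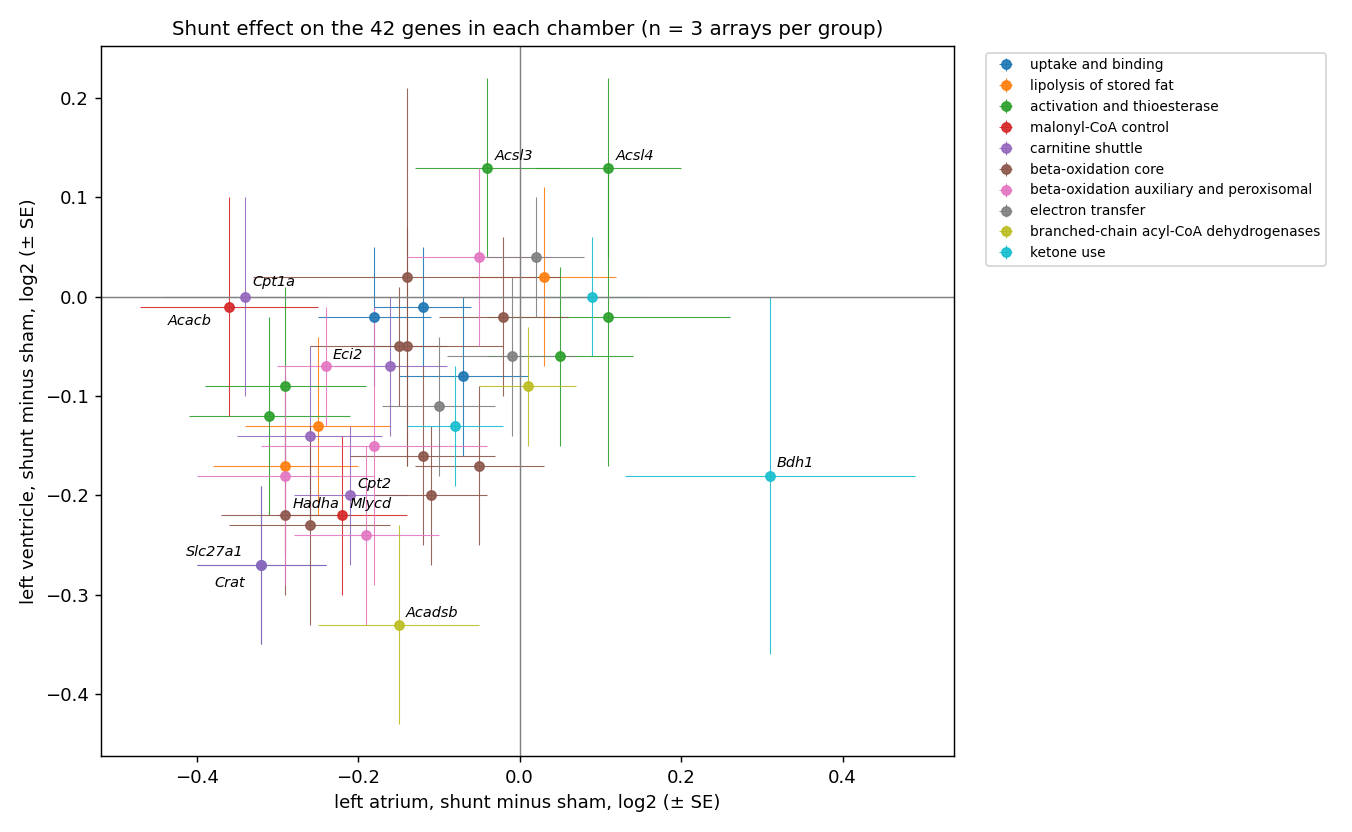
Shunt minus sham in log2 units in the left atrium (horizontal) and left ventricle (vertical) for the 42 genes, coloured by step, with standard errors of the fit as bars and 3 arrays per group. The lower left quadrant holds the 30 genes below 0 in both chambers, among them Crat and Slc27a1 at -0.32 and -0.27, and Bdh1 lies apart at 0.31 in the atrium and -0.18 in the ventricle.

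Uptake came first. All 4 genes of this step were lower in the atrium in sham rats, where 22.6% of all genes were called lower. Cd36, the fatty acid translocase, read 10.62, 10.54 and 10.59 on the atrial sham arrays, 10.44, 10.44 and 10.66 after the shunt, 11.73, 11.84 and 11.83 on the ventricular sham arrays and 11.79, 11.58 and 11.80 after the shunt. The chambers were far apart and sham and shunt arrays overlapped. The chamber difference of Cd36 was -1.22 ± 0.08 (SE, limma adjusted p = 3.55e-07), a level 0.430 times the ventricular one. The heart-type binding protein Fabp3 differed by -0.69 ± 0.07 and Lpl, the lipoprotein lipase, by -0.33 ± 0.06, the smallest difference of the step.

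Slc27a1, the transport protein FATP1, read 7.75, 7.65 and 7.65 in atrial sham and 7.34, 7.50 and 7.24 in atrial shunt, and 8.17, 8.29 and 8.19 in ventricular sham and 7.97, 7.82 and 8.05 in ventricular shunt. Shunt arrays lay below sham arrays in both chambers without overlap. Its fall averaged over the chambers was 0.30 (SE 0.06, limma adjusted p = 0.0198), or 0.814 times the sham level, with -0.32 ± 0.08 in the atrium and -0.27 ± 0.08 in the ventricle. Fabp3 differed by -0.18 ± 0.07 with the shunt in the atrium and by -0.02 ± 0.07 in the ventricle (adjusted p = 0.217 and 0.902).

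Release of fatty acids from stored triglyceride showed 1 chamber difference in 3 genes in sham rats, where 50.2% of all genes were called. Pnpla2, the adipose triglyceride lipase, which takes the first acyl chain, read 8.35, 8.23 and 8.30 in atrial sham, 8.17, 8.38 and 8.42 in atrial shunt, 9.09, 9.15 and 9.18 in ventricular sham and 9.11, 9.03 and 9.33 in ventricular shunt. It was lower in the atrium by -0.84 ± 0.09 in sham rats (limma adjusted p = 1.37e-05) and differed with the shunt by 0.03 ± 0.09 and 0.02 ± 0.09. Mgll, the monoglyceride lipase of the last step, read 8.06, 7.92 and 8.12 in atrial sham and 7.59, 7.76 and 7.89 in atrial shunt, and 8.10, 8.10 and 8.20 in ventricular sham and 8.02, 7.85 and 8.02 in ventricular shunt. Its chambers overlapped in sham rats, and its shunt arrays lay below its sham arrays in each chamber, at -0.29 ± 0.09 (adjusted p = 0.151) and -0.17 ± 0.09 (adjusted p = 0.392). Another Mgll probe set, 1375247_at, fell by 0.27 averaged over the chambers (limma adjusted p = 0.0292). Of the dimmer Mgll probe sets, 1375355_at was lower in the atrium of sham rats by -0.25 ± 0.08 (adjusted p = 0.024), and 1370831_at differed there by 0.18 ± 0.15 (adjusted p = 0.352). Of all probe sets, 1.30% passed for the shunt in the atrium, 4.80% for its average over the chambers, and 47.2% and 41.9% between the chambers in sham rats and after the shunt. Lipe, the hormone-sensitive lipase, differed between chambers by 0.06 ± 0.09 on its brighter probe set, and was lower in the atrium by -0.29 ± 0.07 on 1382465_at (adjusted p = 0.0049). With the shunt in the atrium these probe sets of Lipe differed by -0.25 (adjusted p = 0.208) and 0.05 (adjusted p = 0.797).

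Activation split by isoform. Of the 5 long-chain acyl-CoA synthetases, Acsl6 and Acsl1 were lower in the atrium of sham rats, Acsl4 and Acsl3 were higher, and Acsl5 did not pass. Of all genes, 50.2% were called there. Acsl6, an isoform known best from brain, had the largest measured chamber difference of the probe sets that stand for the 42 genes. It read 4.11, 4.04 and 3.70 in atrial sham and 3.81, 4.07 and 4.30 in atrial shunt. The ventricular values were 7.04, 6.75 and 7.0 in sham and 6.92, 7.08 and 6.74 after the shunt. The measured difference in sham rats was -2.98 ± 0.15 (limma adjusted p = 2.45e-08). Its atrial mean in sham rats, 3.95, lay under the log2 value of 4.01 at which the filter was set, and the probe set passed the filter through the ventricle. With each array set to no less than that value, the difference was -2.88, so the ventricular level is given as at least 7.36-fold higher.

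Acsl4, which prefers arachidonic acid, read 5.90, 5.92 and 6.08 in atrial sham and 5.35, 5.27 and 5.58 in ventricular sham, and 6.07, 6.19 and 5.98 in atrial shunt and 5.51, 5.53 and 5.54 in ventricular shunt. The atrial arrays were the higher ones in sham and after the shunt, by 0.57 ± 0.09 (limma adjusted p = 0.000306) and 0.55 ± 0.09. Acsl3, tied to lipid droplets, was dim throughout, at 4.84, 4.96 and 5.11 in atrial sham, 4.87, 4.92 and 4.99 in atrial shunt, 4.75, 4.68 and 4.44 in ventricular sham and 4.85, 4.68 and 4.75 in ventricular shunt. It was higher in the atrium by 0.35 ± 0.09 in sham rats (adjusted p = 0.0104) and by 0.17 ± 0.09 after the shunt, which did not pass (adjusted p = 0.181). Acsl4 was given on every array after its values were seen.

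Acsl1, the main synthetase of heart muscle, was lower in the atrium by -0.45 ± 0.10 in sham rats and by -0.65 ± 0.10 after the shunt. Its brighter probe set differed with the shunt in the atrium by -0.29 ± 0.10 (adjusted p = 0.202), and its other passing probe set, 1388153_at, fell there by 0.42 (SE 0.09, limma adjusted p = 0.0431), at 9.97, 10.04 and 10.11 in sham against 9.54, 9.51 and 9.81 after the shunt. Averaged over the chambers 1388153_at fell by 0.33 (adjusted p = 0.0146). Acsl5 differed between chambers by 0.07 ± 0.09 in sham rats and by 0.17 ± 0.09 after the shunt. Its dimmer probe set 1397375_at was lower in the atrium after the shunt by -0.30 ± 0.09 (adjusted p = 0.021) and differed in sham rats by -0.22 ± 0.09 (adjusted p = 0.0674). With the shunt in the ventricle it differed by 0.12 ± 0.09, against -0.06 on the brighter one.

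Acot2 encodes a mitochondrial thioesterase, which releases free fatty acid from acyl-CoA. It read 8.33, 8.49 and 8.43 in atrial sham, 8.06, 8.07 and 8.20 in atrial shunt, 9.44, 9.54 and 9.55 in ventricular sham and 9.56, 9.15 and 9.45 in ventricular shunt. Atrial shunt arrays lay below atrial sham arrays, and ventricular arrays overlapped. The chamber difference was -1.10 ± 0.10 in sham rats (limma adjusted p = 3.3e-06), and the shunt differences were -0.31 ± 0.10 in the atrium (adjusted p = 0.161) and -0.12 ± 0.10 in the ventricle (adjusted p = 0.595).

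A dimmer Acot2 probe set, 1384115_at, read 7.99, 7.88 and 7.95 in atrial sham against 7.31, 7.44 and 7.49 after the shunt, and 9.21, 9.24 and 9.32 in ventricular sham against 8.92, 8.62 and 8.88. Neither pair of groups overlapped. This probe set fell by 0.52 in the atrium (SE 0.08, limma adjusted p = 0.0137) and by 0.49 averaged over the chambers (adjusted p = 0.00207), and differed by -0.45 ± 0.08 in the ventricle (adjusted p = 0.0703). A dimmer one still, 1388210_at, fell by 0.28 on average (adjusted p = 0.05). The thioesterases Acot1 and Acot2 are close copies, and a further probe set that the annotation gives to both was left out.

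**Figure D3:**
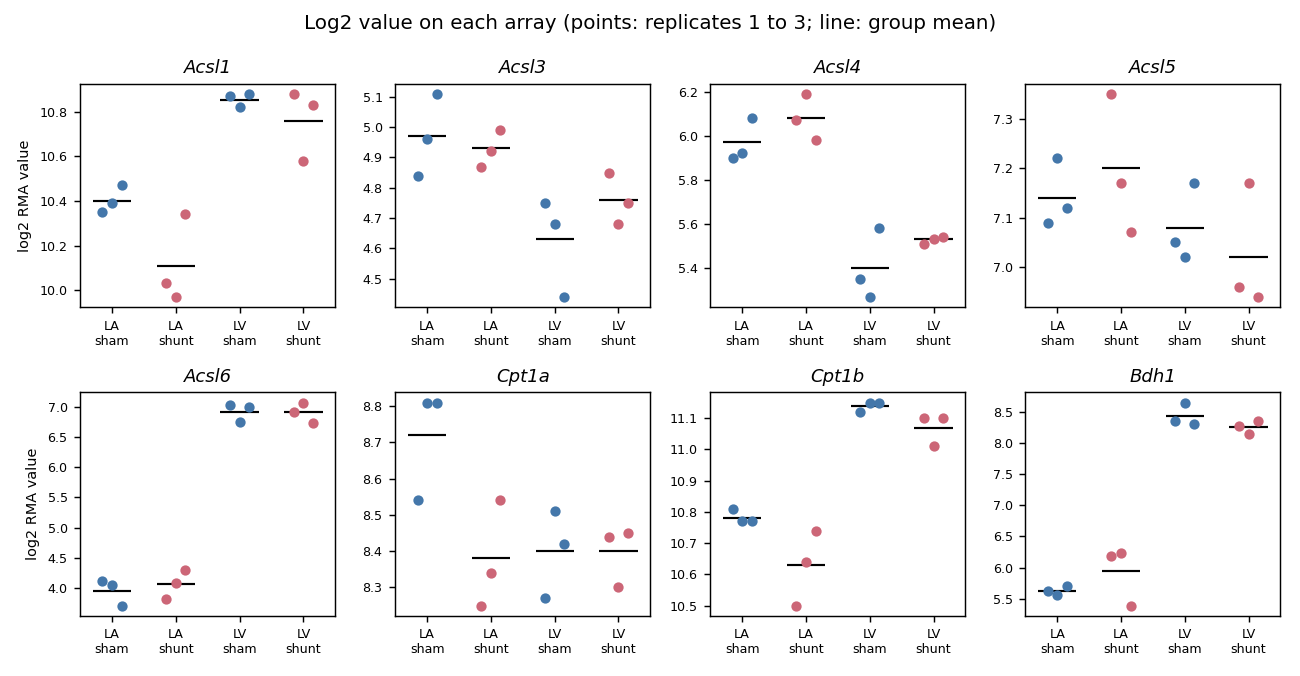
Log2 value on each of the 12 arrays (points, replicates 1 to 3 from left to right) with group means (lines) for the 5 Acsl synthetases, the 2 Cpt1 isoforms and Bdh1; blue is sham, red is shunt, LA is left atrium and LV is left ventricle, and each panel has its own vertical axis that does not start at 0. Acsl6 and Bdh1 stand far lower in the atrium, Acsl4 stands higher there, and atrial Cpt1a is highest in sham.

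The malonyl-CoA switch held a member that fell. Mlycd, the decarboxylase that removes malonyl-CoA, read 8.95, 8.88 and 8.91 in atrial sham and 8.55, 8.70 and 8.84 in atrial shunt, and 9.33, 9.32 and 9.28 in ventricular sham and 9.10, 9.01 and 9.15 in ventricular shunt. Shunt arrays lay below sham arrays in both chambers. The averaged fall was 0.22 (SE 0.05, limma adjusted p = 0.0394), and the atrial level in sham rats was lower by -0.40 ± 0.08 (adjusted p = 0.00103). Acacb, the mitochondrial acetyl-CoA carboxylase, which makes malonyl-CoA, read 7.28, 6.84 and 7.20 in atrial sham and 6.80, 6.87 and 6.57 in atrial shunt, and 7.33, 7.40 and 7.33 in ventricular sham and 7.29, 7.32 and 7.42 in ventricular shunt. The ventricular groups overlapped, and so did the atrial ones, by 1 array of each. Acacb was lower in the atrium by -0.60 ± 0.11 after the shunt (adjusted p = 0.00105) and by -0.25 ± 0.11 in sham rats, which did not pass (adjusted p = 0.0875).

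In the carnitine shuttle, 4 of 5 genes were lower in the atrium of sham rats and 1, Cpt1a, was higher. Of all genes, 22.6% were called lower there and 50.2% in either direction. Cpt2, the inner-membrane transferase, read 8.50, 8.56 and 8.61 in atrial sham and 8.33, 8.37 and 8.35 in atrial shunt, and 9.89, 10.08 and 9.86 in ventricular sham and 9.71, 9.72 and 9.81 in ventricular shunt. The 4 groups did not overlap. The chamber difference was -1.39 ± 0.07 (limma adjusted p = 2.89e-08) and the averaged fall with the shunt 0.20 (SE 0.05, adjusted p = 0.0389).

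Crat, carnitine acetyltransferase, which trades acetyl groups between coenzyme A and carnitine, had the smallest p for the shunt. It read 8.76, 8.94 and 8.90 in atrial sham and 8.48, 8.53 and 8.64 in atrial shunt, and 9.89, 10.07 and 9.84 in ventricular sham and 9.64, 9.64 and 9.71 in ventricular shunt. Every shunt array lay below every sham array of its chamber. Averaged over the chambers Crat fell by 0.29 (SE 0.06, 95% interval -0.41 to -0.17, limma adjusted p = 0.0168), a level 0.816 times that of sham. The differences were -0.32 ± 0.08 in the atrium (adjusted p = 0.0800) and -0.27 ± 0.08 in the ventricle (adjusted p = 0.168), and the atrium was lower than the ventricle by -1.06 ± 0.08 in sham rats.

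Slc25a20, the carnitine-acylcarnitine carrier, read 8.60, 8.55 and 8.54 in atrial sham and 8.36, 8.11 and 8.42 in atrial shunt, and 9.75, 9.80 and 9.68 in ventricular sham and 9.66, 9.48 and 9.66 in ventricular shunt. It was lower in the atrium by -1.18 ± 0.09 (limma adjusted p = 5.69e-07). Its shunt arrays lay below its sham arrays in each chamber, without a call, at -0.26 ± 0.09 and -0.14 ± 0.09 (adjusted p = 0.163 and 0.464).

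The isoforms of the outer-membrane transferase, the entry step itself, lay on opposite sides of 0 between the chambers in sham rats. The muscle isoform Cpt1b was lower in the atrium by -0.35 ± 0.07 (limma adjusted p = 0.00115). The liver isoform Cpt1a was higher there by 0.32 ± 0.10 (adjusted p = 0.0201), at 8.54, 8.81 and 8.81 against 8.27, 8.51 and 8.42. After the shunt Cpt1a read 8.25, 8.34 and 8.54 in the atrium and 8.44, 8.30 and 8.45 in the ventricle, and the chamber difference was -0.02 ± 0.10 (adjusted p = 0.893). The shunt difference of Cpt1a was -0.34 ± 0.10 in the atrium (adjusted p = 0.133) and 0.00 ± 0.10 in the ventricle (adjusted p = 0.999), and the test of one against the other gave -0.34 ± 0.14 (unadjusted p = 0.0336, limma adjusted p = 0.702).

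A second Cpt1a probe set, 1367836_at, read 7.80, 8.0 and 7.91 in atrial sham and 7.37, 7.31 and 7.29 in atrial shunt, and 7.68, 7.87 and 7.68 in ventricular sham and 7.42, 7.65 and 7.84 in ventricular shunt. Its atrial groups did not overlap and its ventricular groups did. It fell in the atrium by 0.58 (SE 0.10, limma adjusted p = 0.0194), by 0.34 averaged over the chambers (adjusted p = 0.0229), and was lower in the atrium than in the ventricle after the shunt by -0.32 ± 0.10 (adjusted p = 0.0244). The higher sham level of Cpt1a in the atrium was not called with this probe set, nor in 3 of the 12 fits without 1 array, those without atrial sham 2, atrial sham 3 or ventricular sham 1. Cpt1a was given on every array after its values were seen.

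Of the core enzymes of beta-oxidation, 9 of 9 were lower in the atrium, in sham and after the shunt. The shares of all genes called lower were 22.6% and 20.9%. The acyl-CoA dehydrogenases take the first step and differ by chain length. Acadm, for medium chains, read 10.36, 10.24 and 10.39 in atrial sham and 9.99, 9.99 and 10.25 in atrial shunt, and 12.10, 12.03 and 12.17 in ventricular sham and 12, 11.68 and 11.92 in ventricular shunt. The difference between the chambers was -1.77 ± 0.10 (95% interval -1.99 to -1.56, limma adjusted p = 6.79e-08), a level 0.293 times the ventricular one. With the shunt, Acadm differed by -0.26 ± 0.10 and -0.23 ± 0.10 (adjusted p = 0.238 and 0.308); its atrial groups overlapped by 1 array and its ventricular groups did not overlap.

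Acads, for short chains, read 8.30, 8.14 and 8.34 in atrial sham and 8.12, 8.25 and 8.27 in atrial shunt, and 9.79, 9.73 and 9.82 in ventricular sham and 9.51, 9.62 and 9.69 in ventricular shunt, a chamber difference of -1.52 ± 0.08. The shunt arrays of Acads lay below the sham arrays in the ventricle and among them in the atrium. Acadl, for long chains, read 11.51, 11.58 and 11.55 in atrial sham and 11.33, 11.39 and 11.47 in atrial shunt, and 12.45, 12.45 and 12.40 in ventricular sham and 12.39, 12.31 and 12.45 in ventricular shunt, a chamber difference of -0.89 ± 0.06. Acadvl, the membrane-bound enzyme for very long chains, differed by -1.11 ± 0.09. The order of these estimates did not follow chain length.

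The later steps differed among themselves in size. Acaa2, the mitochondrial 3-ketoacyl-CoA thiolase, was lower in the atrium by -1.93 ± 0.19 (limma adjusted p = 8.91e-06), with a wide spread, 9.63 to 10.13 in atrial sham and 11.55 to 12.07 in ventricular sham. Its dim probe set 1380504_at was lower in the atrium by -1.0 ± 0.07 and differed with the shunt by 0.07 ± 0.07 in the atrium, where the brighter one differed by -0.14, and by 0.25 ± 0.07 in the ventricle (adjusted p = 0.172), where its shunt arrays lay above its sham arrays. Echs1, the short-chain enoyl-CoA hydratase, read 9.01, 8.88 and 8.98 in atrial sham and 8.79, 8.98 and 9.03 in atrial shunt, and 10.00, 9.98 and 10.08 in ventricular sham and 10.08, 9.87 and 10.06 in ventricular shunt. Its chamber difference was -1.06 ± 0.08 and its shunt differences were -0.02 ± 0.08 in both chambers. Hadh, the short-chain 3-hydroxyacyl-CoA dehydrogenase, differed between the chambers by -0.60 ± 0.12.

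Hadha and Hadhb, the alpha and beta subunits of the trifunctional protein for long chains, had the smallest chamber differences of the 9, -0.44 ± 0.08 and -0.43 ± 0.07 in sham rats. Hadha read 10.69, 10.77 and 10.71 in atrial sham and 10.37, 10.35 and 10.58 in atrial shunt, and 11.09, 11.23 and 11.16 in ventricular sham and 11.01, 10.79 and 11.02 in ventricular shunt. Its shunt arrays lay below its sham arrays in both chambers, and it fell on average by 0.26 (SE 0.06, limma adjusted p = 0.0329). Its other passing probe set, 1394857_at, was dim and went the other way without a call: it read 4.21, 3.90 and 4.13 in atrial sham and 3.98, 4.27 and 4.76 in atrial shunt, and 4.71, 4.46 and 4.46 in ventricular sham and 4.71, 4.41 and 4.79 in ventricular shunt. These groups overlapped, and the averaged difference was 0.18 ± 0.12 (adjusted p = 0.418). The call on Hadha was lost with its probe sets averaged. Hadhb read 11.46, 11.47 and 11.46 in atrial sham and 11.32, 11.33 and 11.41 in atrial shunt, and 11.90, 11.83 and 11.95 in ventricular sham and 11.77, 11.58 and 11.74 in ventricular shunt. It too had lower shunt arrays without overlap, by -0.11 ± 0.07 and -0.20 ± 0.07, and its average of -0.15 ± 0.05 did not pass (adjusted p = 0.0877).

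**Figure D4:**
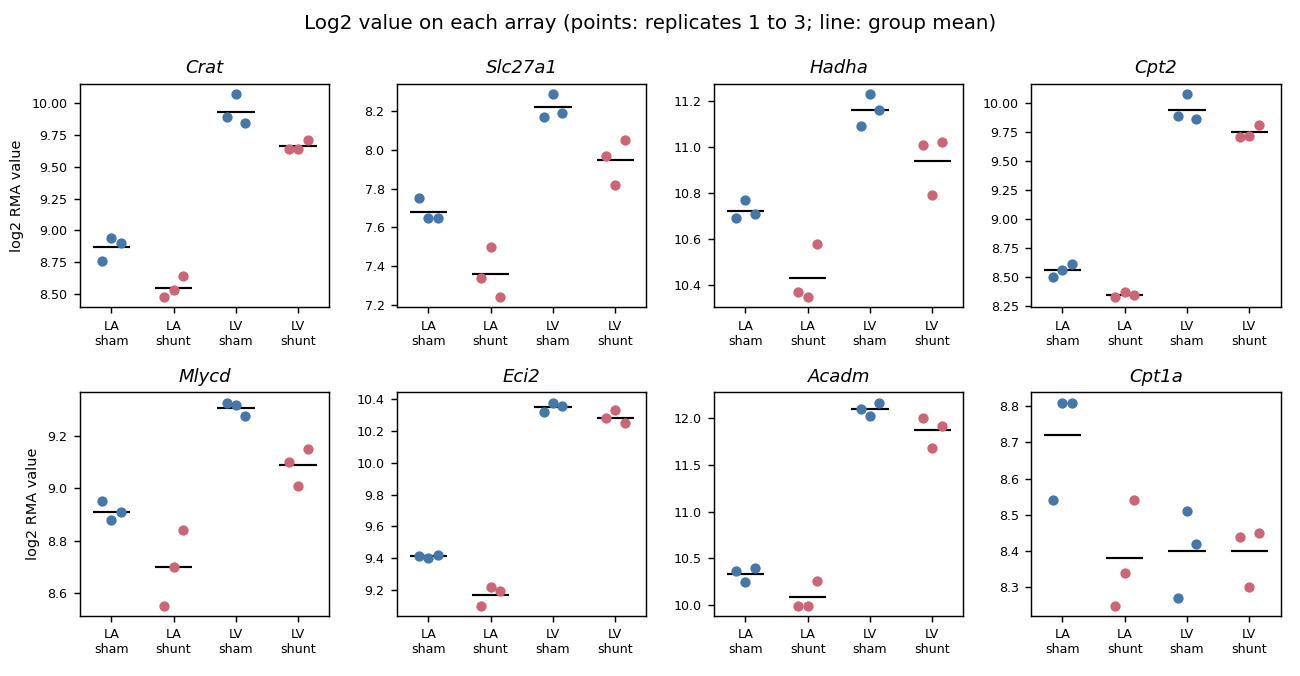
Log2 value on each of the 12 arrays (points, replicates 1 to 3 from left to right) with group means (lines) for the 5 genes that fell with the shunt averaged over the chambers (Crat, Slc27a1, Hadha, Cpt2 and Mlycd) and for Eci2, Acadm and Cpt1a; blue is sham, red is shunt, LA is left atrium, LV is left ventricle, and each panel has its own vertical axis that does not start at 0. In the first 5 panels the red points lie below the blue points of the same chamber.

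Auxiliary enzymes handle double bonds, and Hsd17b4 serves peroxisomes. Of 5 such genes, 4 were lower in the atrium of sham rats, where 22.6% of all genes were called lower. Eci2, an enoyl-CoA isomerase, read 9.41, 9.40 and 9.42 in atrial sham and 9.10, 9.22 and 9.19 in atrial shunt, and 10.32, 10.38 and 10.36 in ventricular sham and 10.28, 10.33 and 10.25 in ventricular shunt. Its atrial groups were apart and its ventricular groups overlapped by 1 array. Of the probe sets that stand for the 42 genes, that of Eci2 had the smallest p for the atrial shunt effect. The difference was -0.24 ± 0.06 and did not pass (limma adjusted p = 0.0707). Other probe sets of Acot2, Cpt1a and Acsl1 had smaller p-values and passed. The ventricular difference of Eci2 was -0.07 ± 0.06.

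Eci1, the other isomerase, read 9.43, 9.37 and 9.39 in atrial sham and 9.16, 9.13 and 9.35 in atrial shunt, and 10.58, 10.73 and 10.56 in ventricular sham and 10.49, 10.17 and 10.47 in ventricular shunt. Its shunt arrays lay below its sham arrays in each chamber, at -0.19 ± 0.09 and -0.24 ± 0.09, without a call. The chamber differences in sham rats were -1.22 ± 0.09 for Eci1, -0.94 ± 0.06 for Eci2, -0.73 ± 0.09 for Hsd17b4 and -0.69 ± 0.11 for the dienoyl-CoA isomerase Ech1. Decr1, the dienoyl-CoA reductase, differed by 0.18 ± 0.14 (adjusted p = 0.298) with overlapping arrays.

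Electrons of beta-oxidation pass to ubiquinone through the flavoprotein of Etfa and Etfb and its dehydrogenase Etfdh. All 3 genes were lower in the atrium, Etfdh by -1.07 ± 0.07 (limma adjusted p = 3.06e-07), Etfa by -0.50 ± 0.06 and Etfb by -0.37 ± 0.08. In sham rats 22.6% of all genes were called lower there. Etfdh read 9.47, 9.41 and 9.49 in atrial sham and 9.32, 9.31 and 9.44 in atrial shunt, and 10.49, 10.59 and 10.50 in ventricular sham and 10.46, 10.28 and 10.49 in ventricular shunt. Sham and shunt arrays of the 3 genes overlapped in both chambers, with shunt differences from -0.11 to 0.04.

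The branched-chain enzymes differed from each other. Ivd, isovaleryl-CoA dehydrogenase of leucine breakdown, read 9.15, 9.08 and 9.12 in atrial sham and 9.06, 9.16 and 9.17 in atrial shunt, and 9.45, 9.43 and 9.40 in ventricular sham and 9.35, 9.40 and 9.28 in ventricular shunt, lower in the atrium by -0.31 ± 0.06 (limma adjusted p = 0.00127). Acadsb, of isoleucine breakdown, read 6.60, 6.77 and 6.63 in atrial sham and 6.68, 6.43 and 6.45 in atrial shunt, and 6.62, 6.85 and 6.56 in ventricular sham and 6.25, 6.32 and 6.48 in ventricular shunt. Its chambers overlapped in sham rats, a difference of -0.01 ± 0.10. Its ventricular shunt arrays lay below the sham arrays, by -0.33 ± 0.10 (adjusted p = 0.176). This was the largest ventricular shunt difference of the probe sets that stand for the 42 genes.

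In ketone use the first enzyme stood apart. Bdh1, which oxidises beta-hydroxybutyrate, read 5.62, 5.56 and 5.71 in atrial sham and 6.18, 6.24 and 5.39 in atrial shunt, and 8.36, 8.65 and 8.31 in ventricular sham and 8.27, 8.15 and 8.35 in ventricular shunt. The chamber difference was -2.81 ± 0.18 in sham rats (limma adjusted p = 2.43e-07), a level 0.142 times the ventricular one, and -2.32 ± 0.18 after the shunt. Atrial shunt 1 and 2 lay above every atrial sham array and atrial shunt 3 below them, so the difference of 0.31 ± 0.18 did not pass (adjusted p = 0.463).

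The other Bdh1 probe set, 1374765_at, read 4.95, 4.87 and 4.70 in atrial sham and 5.74, 5.66 and 5.13 in atrial shunt, and 8.14, 8.54 and 8.08 in ventricular sham and 8.19, 7.80 and 8.22 in ventricular shunt. All 3 atrial shunt arrays lay above the sham arrays, and again atrial shunt 3 was the lowest of them. The ventricular groups overlapped. The atrial minus the ventricular shunt effect of this probe set was 0.85 ± 0.25 (unadjusted p = 0.00485, limma adjusted p = 0.485).

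The later enzymes differed less. Oxct1, which activates acetoacetate with coenzyme A from succinyl-CoA, was lower in the atrium by -0.32 ± 0.06. Of the probe sets that stand for the 42 genes, only that of Oxct1 had every atrial shunt array above the sham arrays. It read 11.71 to 11.84 against 11.64 to 11.68 (9.26% of all genes did so), a difference of 0.09 ± 0.06. Acat1, the acetoacetyl-CoA thiolase, read 10.81, 10.87 and 10.83 in atrial sham and 10.75, 10.72 and 10.81 in atrial shunt, and 10.93, 11 and 11.03 in ventricular sham and 10.92, 10.77 and 10.86 in ventricular shunt. Its chamber difference of -0.15 ± 0.06 did not pass (adjusted p = 0.0735).

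A list of 54 further genes of fatty acid handling was read beside these, of which 46 were tested. In sham rats 26 were lower in the atrium and 4 higher (22.6% of all genes were lower and 50.2% called), with a median of -0.34. Those of smallest p were Slc16a1, a monocarboxylate carrier (-1.44 ± 0.07), Ucp3, a mitochondrial uncoupling protein (-1.55 ± 0.13), Pdk4, the kinase that holds back pyruvate oxidation (-0.86 ± 0.08), Acot13 (-0.92 ± 0.08), Plin5, the lipid droplet protein of oxidative tissue (-1.43 ± 0.14), and Fabp5, a binding protein (0.67 ± 0.07). With the shunt 2 of the 46 fell in the atrium and 0 in the ventricle, where 1.40% and 0.113% of all genes passed. In the ventricle 8 of the 46 had an unadjusted p under 0.05 (14.6% of all genes had one). Averaged over the chambers Pdk4, Ucp2 and Plin5 fell, where 2.69% of all genes did.

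Pdk4 read 8.54, 8.54 and 8.56 in atrial sham and 7.68, 7.51 and 7.69 in atrial shunt, and 9.35, 9.49 and 9.39 in ventricular sham and 9.04, 8.86 and 9.08 in ventricular shunt, without overlap in either chamber. Fabp5 fell in the atrium by 0.40 (SE 0.07, limma adjusted p = 0.0210), from 9.89, 10.09 and 9.96 to 9.59, 9.62 and 9.51, and its ventricular arrays overlapped. Ucp2 differed in the ventricle by -0.56 ± 0.10 (adjusted p = 0.0608) and Plin5 fell on average by 0.39 (SE 0.10, adjusted p = 0.0452).

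Lists of neighbouring pathways showed the chamber difference and a smaller shift with the shunt. Of 35 genes of the citric acid cycle and respiratory chain, 32 (91.4%) were lower in the atrium of sham rats, with a median of -0.41. Among all genes 22.6% were lower there. In 1 gene of the 35 (2.86%) the atrium was lower by 1 or more, against 2.08% of all genes. The shunt medians of the 35 genes were -0.01 in the atrium and -0.03 in the ventricle. Below 0 with the shunt were 19 of the 35 in the atrium and 25 in the ventricle (52.9% and 50.0% of all genes). In 5 and 9 of them every shunt array lay below every sham array (12.5% and 10.5% of all genes). Of 26 genes of glucose uptake and glycolysis 15 were lower and 4 higher in the atrium of sham rats, or 73.1% called against 50.2%. The median of the 26 was -0.22, with shunt medians of -0.03 and -0.04. With the shunt 15 of the 26 were below 0 in the atrium and 20 in the ventricle. Every shunt array lay below every sham array in 6 and 4 of the 26. The differences between these medians and counts and those of the 42 genes were not tested.

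The shift of the 42 genes was uneven over the shunt arrays. The median over the genes, relative to the sham mean of the chamber, was -0.21, -0.19 and -0.05 on the atrial shunt arrays and -0.04, -0.22 and -0.05 on the ventricular ones, and within 0.03 of 0 on the 6 sham arrays. The sham arrays make up that mean, so their closeness to 0 is in part fixed by the measure. Ventricular shunt 2 and atrial shunt 1 and 2 had the lowest medians. Taken by step, the median of the 5 carnitine shuttle genes was -0.28, -0.33 and -0.18 on the atrial shunt arrays and -0.09, -0.22 and -0.08 on the ventricular ones, and that of the malonyl-CoA pair was -0.33, -0.23 and -0.30 and then -0.14, -0.17 and -0.05. The medians of the 42 genes, of these steps, of lipolysis, of the auxiliary enzymes and of the branched-chain pair were below 0 on all 6 shunt arrays. So were those of the 46 further fatty acid genes (-0.11 to -0.02) and of the cardiomyocyte markers (-0.09 to -0.01). Without ventricular shunt 2 the ventricular median was -0.05, and without atrial shunt 3 the atrial median was -0.20.

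**Figure D5:**
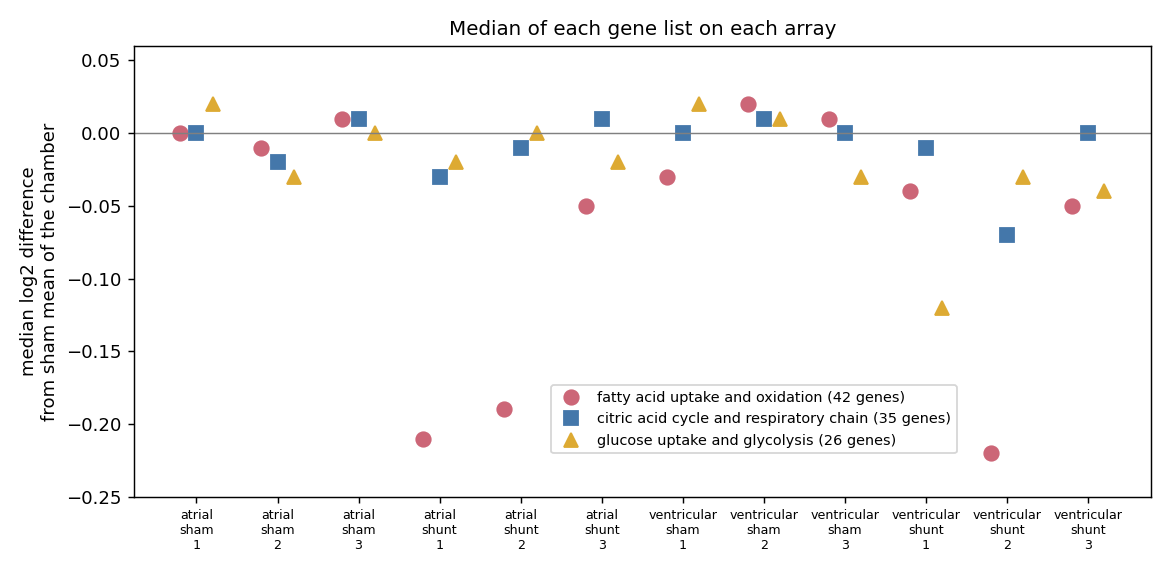
Median difference of a gene list from the sham mean of the same chamber, in log2 units, on each of the 12 arrays, for the 42 genes of fatty acid uptake and oxidation (circles), 35 genes of the citric acid cycle and respiratory chain (squares) and 26 genes of glucose uptake and glycolysis (triangles). The circles are lowest, at -0.22 to -0.19, on atrial shunt 1 and 2 and ventricular shunt 2.

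Markers of cell types and of RNA quality moved with some of these groups, and their part in the results was not tested. The 11 tested cardiomyocyte markers had medians of -0.09, -0.09 and -0.01 on the atrial shunt arrays and -0.03, -0.01 and -0.03 on the ventricular ones, with 0 of 11 called in either chamber. Of these markers 9 were below 0 in the atrium and 8 in the ventricle (52.9% and 50.0% of all genes). The macrophage list stood at 0.28, 0.35 and -0.24 on the atrial shunt arrays and 0.17, 0.40 and 0.23 on the ventricular ones, with 8 and 10 of 10 genes above 0 and 0 called. Its mean log2 level was 6.31 to 6.46 in atrial sham, 6.15 to 6.78 in atrial shunt, 6.47 to 6.54 in ventricular sham and 6.68 to 6.92 in ventricular shunt. The fibroblast list stood at 0.12, 0.10 and -0.20 on the atrial shunt arrays and -0.10, 0.19 and -0.07 on the ventricular ones, with 0 of 10 called in either chamber. It was above 0 on the 3 shunt arrays where the 42 genes were lowest and below 0 on the other 3. The mesothelial list stood at 0.02, -0.07 and -0.62 and then 0.35, 0.18 and 0.13, with 1 of 5 called lower in the atrium and 0 in the ventricle.

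Of the ventricular myocyte markers, Myh7, Kcnip2 and Myl3 rose in the atrium with the shunt (3 of 7), where 1.40% of all genes passed. Of the 7 differences 5 were above 0 and 2 below, those of Fhl2 and Irx4, without a call. Fhl2 read 9.11, 9.11 and 9.01 in atrial sham and 8.74, 8.95 and 8.80 in atrial shunt. The list's mean level was 5.93 to 6.35 in atrial sham and 6.63 to 7.04 in atrial shunt. Between the chambers of sham rats, where 50.2% of all genes were called, 8 of 10 fibroblast markers were higher in the atrium. Their mean levels were 9.89 to 9.91 against 9.18 to 9.27. There 4 of 5 mesothelial markers were higher as well, and the other, Wt1, was lower by -0.60. The mean levels of the 5 were 6.28 to 6.50 against 4.20 to 4.22. The cardiomyocyte list, at 12.74 to 12.76 in the atrium and 12.85 to 12.88 in the ventricle, had 4 of 11 markers lower and 2 higher. The endothelial list had 5 of 9 lower and 1 higher in the atrium, with a median of -0.27. The smooth muscle list had 4 of 6 lower and 0 higher, with a median of -0.31. The macrophage list had 2 of 10 lower and 1 higher, and the nerve and Schwann list 0 of 4 lower and 2 higher. Of 10 adipocyte markers 3 were tested. In sham rats Cidea and Cfd were higher in the atrium, by 1.08 ± 0.24 and 1.05 ± 0.26 (limma adjusted p = 0.00349 and 0.00544), and Fabp4 was lower by -0.51 ± 0.09 (adjusted p = 0.000563), and none of the 3 was called with the shunt. Adipoq, Plin1, Cidec and Lep were below the filter, at 4.84 at most on any array, as were Pck1 and Ucp1, at 5.35 and 6.53 at most.

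The hexokinase control, whose 3′ minus 5′ difference grows as RNA is degraded or incompletely copied, was 1.01 to 1.10 in atrial sham, 0.80, 0.94 and 1.44 on the atrial shunt arrays, 0.84 to 1.02 in ventricular sham and 1.23, 0.82 and 1.18 on the ventricular shunt arrays. Within a chamber's shunt arrays, the array or arrays with the smaller hexokinase value had the lower medians of the 42 genes. The same difference of the actin and GAPDH controls was also smaller on atrial shunt 1 and 2 than on atrial shunt 3. On ventricular shunt 1, 2 and 3 it was 1.17, 1.08 and 1.02 for actin and 0.39, 0.39 and 0.36 for GAPDH. There the array with the lowest median, ventricular shunt 2, had the smallest value for neither. With the hexokinase difference as a covariate, 7 of the 42 genes fell in the atrium, 1 in the ventricle and 17 on average. Of all genes 4.23%, 1.23% and 9.89% then passed in either direction. The ventricular median of the 42 genes was then -0.15, and that of the atrial minus the ventricular effect 0.01.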

How the data were processed

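The deposited values are log2 expression values made by the authors with RMA, per the submitters' processing notes; the version of RMA and which arrays were normalized together are not given in the sources used here. They run from 2.05 to 14.29. Labelling started from 10 µg of RNA, per the labels' protocols. From there, 57 control probe sets were left out and 18625 probe sets with a mean at or above the 40th percentile (log2 4.01) were tested with limma 3.58.1 in R 4.3.3 (lmFit and eBayes, 1 mean per group over 12 arrays, no block, 8 residual degrees of freedom, prior 3.68), two-sided, with Benjamini-Hochberg adjustment over all of them and a threshold of 0.05. Errors are standard errors of the fit. The sources call the pools biological replicates, and 3 per group limit the precision. Symbols came from the platform annotation, updated by Entrez identifier (20758 of 20826; 68 kept). Promoters came from RefSeq (GRCr8).

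The members and gene lists were chosen with earlier results of these data known. Values on every array are given for members past the threshold, up to 12 per comparison by smallest p, and for each step's member of smallest p in both shunt comparisons and between chambers in sham rats; other probe sets of a gene are named where their sign or call differed within a chamber, averaged over chambers or between chambers. Up to 6 other pathway genes per comparison are named. The fit was tested on simulated data.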

Additional observations from a re-analysis of the deposited data

How the results depend on the processing

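The number of the 42 genes called was recomputed under 15 other settings and without each array. Percentages in brackets are the share of all genes called under the same setting. The cause of the changes below was not tested. In the atrium with the shunt (0 called, 1.40%) the number was 2 with a 60th percentile filter (2.86%) and 11 with array weights (5.54%). With a trended and robust prior it was 4 (2.61%), and with a gene's probe sets averaged 4 (2.35%). With the probe set of largest variance it was 3 (1.40%), and with the hexokinase covariate 7 (4.23%). Without both atrial shunt 3 and ventricular shunt 2 (chosen after seeing the data) it was 11 (4.28%). Without 1 array it was 0 to 3. In the ventricle (0 called, 0.113%) it was 1 with the hexokinase covariate (1.23%), with a median of -0.15 in place of -0.09. It was 0 in each fit without 1 array. For the atrial minus the ventricular effect it was 1 without both arrays (1.70%), with a median of -0.12. It was 0 in each fit without 1 array. For the average over chambers (5 called, 5.06%) it was 3 with no filter (2.73%) and 8 with the 60th percentile (8.26%). It was 13 with array weights (9.31%), 11 with the trended prior (6.80%) and 9 with the mean of probe sets (6.39%). With the covariate it was 17 (9.89%), and without both arrays 10 (8.60%). At a minimum fold of 1.2 it was 0 (0.113%), and without 1 array it ran from 1 (2.16%) to 11 (6.97%). The median between the chambers moved to -0.67 in sham with arrays centred on their median, and after the shunt to -0.79 with array weights and -0.83 without both arrays; without 1 array it ran from -0.60 to -0.52 and from -0.78 to -0.61. With the probe set of largest variance the sign turned in 15 of 252 gene values, of 5 genes (Hadha, Lipe, Acsl5, Mgll and Acat1). In 3 of them the value was called with one probe set or the other: Hadha averaged over chambers (0.18), Lipe between chambers in sham (-0.29) and Acsl5 after the shunt (-0.30). The replicate numbers were not taken to pair the samples: same-numbered deviations correlated at 0.07 to 0.26 between atrial and ventricular sham and at -0.24 to 0.44 between atrial and ventricular shunt. For the other pairs of groups they correlated at -0.10 to 0.06. Whether same-numbered pools of an operation came from the same rats was not tested. With the replicate block within an operation 2 genes fell on average (3.02%), Crat and Slc27a1, and Hadha, Cpt2 and Mlycd lost their calls. With the number as a block over all groups 6 were called on average (4.97%).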
